A study of Mus musculus with 4 samples.

Results

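Complement genes were followed in tibialis anterior muscle of mice, with 4 Affymetrix whole-genome mouse arrays. Of 9 listed genes, 8 had at least 1 probe set carrying that gene symbol alone, out of 18193 genes annotated in this way. These were C1qa, C1qb, C1qc, Cfb, Cfp, Serping1, C3ar1 and C5ar1, with 14 probe sets between them. The remaining listed gene, C3, had no probe set under that symbol and was not analysed here. All 8 genes lay above the signal floor in all 4 arrays. Each group was a single array: mdx/MMP-2-/- at 3 months, mdx at 3 months, mdx/MMP-2-/- at 1 month and mdx at 1 month, all labelled as C57BL/6J. Every group carried the mdx allele, which removes dystrophin and gives a standard mouse model of Duchenne muscular dystrophy. The double mutants, called mdx/MMP-2 null or the double mutant below, also lacked matrix metalloproteinase 2, a secreted gelatinase. No wild-type muscle was among these arrays, and the labels do not say how many animals each RNA came from.

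Complement is a cascade of plasma proteins that tags particles and damaged cells for uptake and draws in leukocytes. It can be started by C1q bound to a surface (the classical pathway) or amplified on the surface through factor B and properdin (the alternative pathway), and both routes cleave C3 and then C5 into small peptides that act on receptors of myeloid cells. In tissues, C1q is made mostly by macrophages, which are abundant in dystrophic muscle during fibre necrosis and repair.

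C1qb, C1qc and C1qa are neighbours, in this order, on mouse chromosome 4. Promoter sequences from RefSeq (GRCm38.p6) matched 5 of the 8 genes: C1qb, C1qc, Cfp, C3ar1 and C5ar1. The 250 bases before the start of 4 of them are shown 5′ to 3′, for C1qb and C1qc because they lie side by side, and for C3ar1 and C5ar1 because these receptors had the largest differences between genotypes. Capitals mark GAGGAA, or TTCCTC where it lies on the opposite strand, the core recognised by the myeloid transcription factor PU.1.
C1qb, chr4:136886201-136886450, minus strand: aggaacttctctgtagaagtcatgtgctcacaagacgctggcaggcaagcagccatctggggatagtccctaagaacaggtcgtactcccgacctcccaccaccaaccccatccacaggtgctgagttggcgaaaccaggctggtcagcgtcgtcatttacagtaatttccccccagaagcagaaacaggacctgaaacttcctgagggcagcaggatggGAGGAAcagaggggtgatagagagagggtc
C1qc, chr4:136892915-136893164, minus strand: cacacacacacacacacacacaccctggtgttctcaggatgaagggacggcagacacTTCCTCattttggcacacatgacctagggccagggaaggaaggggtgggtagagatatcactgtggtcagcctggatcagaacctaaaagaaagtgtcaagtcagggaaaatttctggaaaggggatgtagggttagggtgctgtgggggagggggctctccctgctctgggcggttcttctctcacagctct
C3ar1, chr6:122856158-122856407, minus strand: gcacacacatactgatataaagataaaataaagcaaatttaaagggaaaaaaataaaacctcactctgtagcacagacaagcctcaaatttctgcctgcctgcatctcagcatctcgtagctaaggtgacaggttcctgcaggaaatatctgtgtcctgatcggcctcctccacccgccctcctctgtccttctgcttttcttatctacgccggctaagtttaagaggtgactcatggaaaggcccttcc
C5ar1, chr7:16259339-16259588, minus strand: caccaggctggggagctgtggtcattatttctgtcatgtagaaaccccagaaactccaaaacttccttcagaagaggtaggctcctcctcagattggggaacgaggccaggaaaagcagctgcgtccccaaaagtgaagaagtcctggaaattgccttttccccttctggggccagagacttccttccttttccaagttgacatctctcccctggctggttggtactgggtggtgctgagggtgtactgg

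The PU.1 core was found in 2 of the 5 promoters, 30 to 25 bases before the start of C1qb and, on the opposite strand, 193 to 188 bases before that of C1qc. Of 32851 promoter windows of this length, 23.3% held it. An NF-kB motif, searched on both strands, also occurred in the C1qb and C1qc windows and did not overlap the PU.1 core, against 17.6% of all windows. TTCNNNGAA, the letters of a STAT site, and an IRF motif, likewise searched on both strands, were in none of the 5 windows, against 7.02% and 2.98% of all windows. These matches are descriptions of the letters and not of binding.

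The values below are MAS5 probe set signals as deposited by the authors, brought to a common scale by quantile normalization. The deposited signals differed in level, with a trimmed mean 1.34 times that of mdx at 1 month in the double mutant at 3 months, against 0.99 to 1.07 in the other arrays. Signals below 17.4, the 50th percentile, were raised to that floor, and 12801 genes exceeded it in at least 1 array. Mmp2 stood at 40.9 in the double mutant and 805 in mdx at 3 months, and at 24.7 and 985 in the same order at 1 month, so it was low in both double-mutant arrays. All 8 defining skeletal muscle markers were above the floor in every array. With 1 array a group, differences between 2 arrays were left untested, and words such as "higher" refer to the arrays at hand. The arrays' number limits the precision.

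The genotype difference at 3 months addressed whether complement genes differ in dystrophic muscle without MMP-2 after the first wave of regeneration. All 8 genes were higher in mdx/MMP-2 null than in mdx, against 47.6% of the 12801 genes tested. Their median log2 difference was 0.42, against 0 for all genes. The receptors for the cleavage peptides C3a and C5a stood furthest apart, then properdin, then the C1q chains, while factor B and C1 inhibitor differed by less than 1.1-fold. No gene reached 2-fold, a size that 1.18% of genes reached in that direction. At 1.5-fold, 3 of 8 were higher (C3ar1, C5ar1 and Cfp), against 6.12% of all genes. With all probe sets averaged in place of the brightest, 1 of the 8 (C3ar1) was. Without scaling, 3 of the 8 passed 2-fold while the typical gene (the median) itself stood 0.41 log2 units higher. With median scaling 1 of the 8 passed it. The share of all genes past either threshold was not counted under these alternatives.

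**Figure D1:**
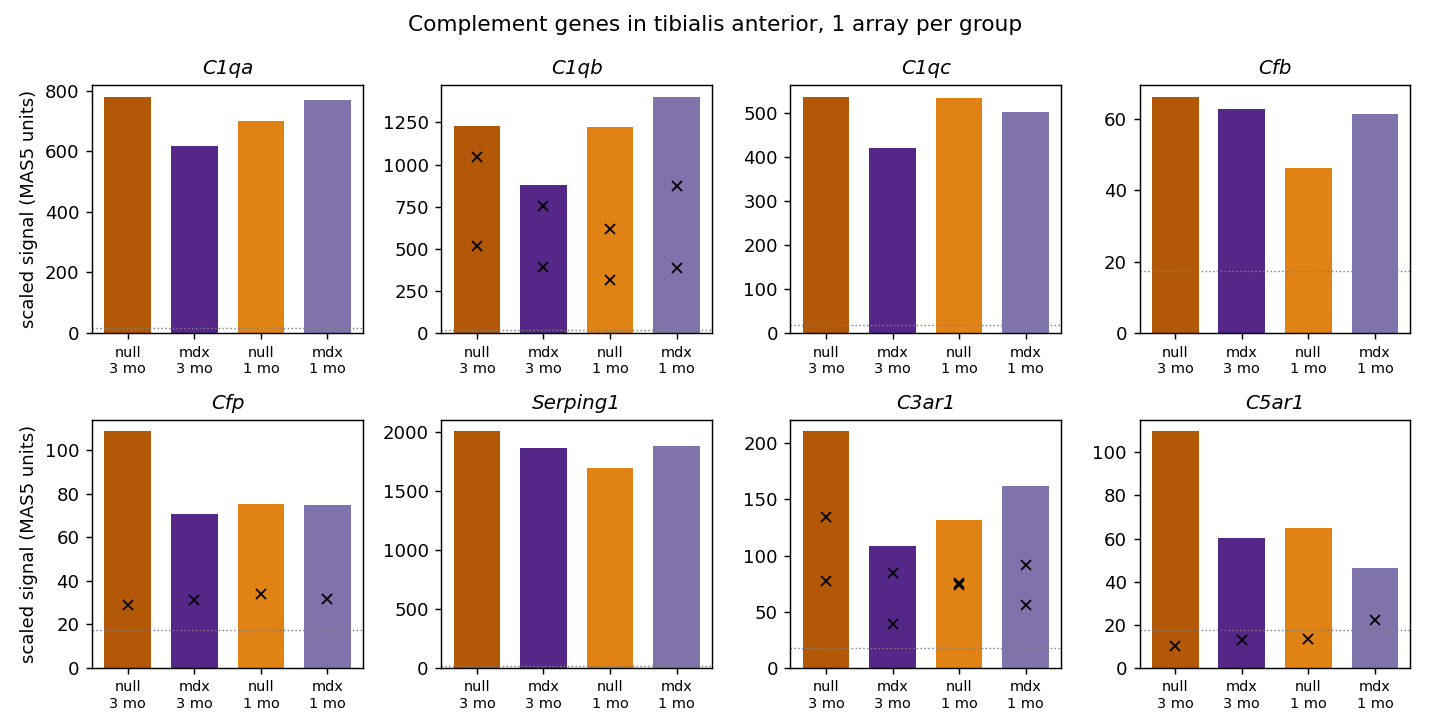
Scaled MAS5 signal (vertical axis, from 0) of the 8 complement genes in the 4 single arrays, with mdx/MMP-2 null (null) left of mdx at 3 months and at 1 month. Bars give the probe set used for the gene, crosses its other probe sets, and the dotted line the floor of 17.4. The null array at 3 months has the highest bar for all genes except C1qb, whose highest signal was 1402 in mdx at 1 month.

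C3ar1 encodes the receptor for C3a on myeloid cells. Its signal was 210 in the double mutant and 109 in mdx at 3 months, and 132 in the double mutant and 162 in mdx at 1 month. The double-mutant array was thus the highest of the 4 at 3 months and below mdx at 1 month. At 3 months the fold was 1.94, and 1.46% of genes were at least as far above mdx. Its other probe sets were 2.0-fold and 1.59-fold higher at 3 months, so all 3 pointed one way at that age. At 1 month they did not: 2 probe sets were lower in mdx/MMP-2 null, by 1.23-fold and 1.25-fold, and the third was higher by 1.35-fold.

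C5ar1 encodes the receptor for C5a, a strong attractant of neutrophils and macrophages. Its signal was 110 in the double mutant and 60.3 in mdx at 3 months, and 65.0 in the double mutant and 46.1 in mdx at 1 month. It was higher in mdx/MMP-2 null at both ages, by 1.82-fold at 3 months and 1.41-fold at 1 month. Of all genes, 2.07% were at least as far above mdx at 3 months and 5.27% at 1 month. The other C5ar1 probe set was near the floor, with 22.1 in mdx at 1 month as its only value above it: it was at least 1.26-fold lower in the double mutant at that age and gave no difference at 3 months.

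The C1q chains assemble into the recognition molecule of the classical pathway. C1qa had 781 in the double mutant and 616 in mdx at 3 months, and 701 in the double mutant and 770 in mdx at 1 month. C1qb had 1228 in the double mutant and 877 in mdx at 3 months, and 1225 in the double mutant and 1402 in mdx at 1 month. C1qc had 537 in the double mutant and 419 in mdx at 3 months, and 533 in the double mutant and 501 in mdx at 1 month. With the probe set used for each chain, the mdx array at 3 months was the lowest of the 4. The remaining C1qb probe sets were instead lowest in the double mutant at 1 month, at 617 and 314, against 751 and 394 in mdx at 3 months. The differences at 3 months were 1.27-fold, 1.4-fold and 1.28-fold for C1qa, C1qb and C1qc, and the remaining C1qb probe sets gave 1.39-fold and 1.31-fold. At 1 month C1qa and C1qb were lower in mdx/MMP-2 null by 1.1-fold and 1.14-fold, and C1qc was higher by 1.06-fold.

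Both alternative pathway genes had modest signals. Cfp encodes properdin, a protein of leukocytes that stabilises the C3 convertase. Its signal was 109 in the double mutant and 70.8 in mdx at 3 months, and 75.4 in the double mutant and 74.8 in mdx at 1 month. The 3-month double mutant stood 1.53-fold above mdx while the other 3 arrays lay close together, but the dimmer Cfp probe set was 1.07-fold lower in that comparison (29.0 against 31.0). Cfb encodes factor B, the protease of that convertase, and had 66.3 in the double mutant and 62.8 in mdx at 3 months, and 46.4 in the double mutant and 61.4 in mdx at 1 month. Its difference was 1.06-fold at 3 months, while at 1 month it was 1.32-fold lower in mdx/MMP-2 null.

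Serping1 encodes C1 inhibitor, which inactivates the proteases C1r and C1s and also plasma kallikrein. Its signal was 2003 in the double mutant and 1860 in mdx at 3 months, and 1694 in the double mutant and 1882 in mdx at 1 month. The highest and the lowest of the 4 arrays differed by 1.18-fold, the smallest range of the 8 genes.

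A yardstick for these sizes is the spread among probe sets of 1 gene, which read the same RNA. Across all genes with several probe sets above the floor, the median SD of their log2 differences was 0.2 for the genotype difference at either age. At 3 months the log2 differences of C3ar1 (0.95), C5ar1 (0.86), Cfp (0.62), C1qb (0.49), C1qc (0.36) and C1qa (0.34) exceeded it, and those of Serping1 (0.11) and Cfb (0.08) did not. Of all genes, 14.9% were at least as far above mdx as C1qa, and the dimmer Cfp probe set had -0.1. The probe sets of a gene share the same arrays, so this spread holds no variation between animals or between arrays. Of the 14 member probe sets, 12 were higher in mdx/MMP-2 null at 3 months, 1 was lower and 1 was at the floor in both arrays.

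**Figure D2:**
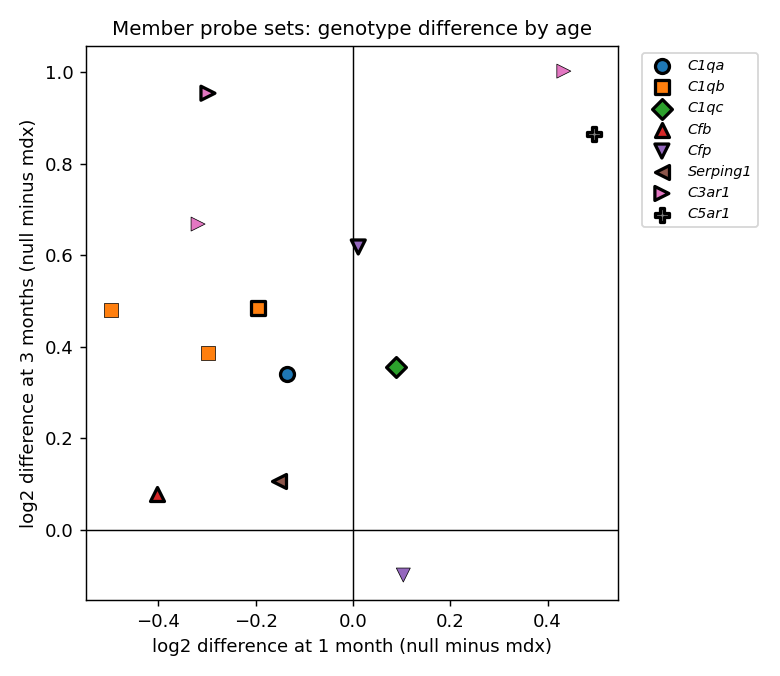
Log2 difference between mdx/MMP-2 null and mdx at 1 month (horizontal axis) and at 3 months (vertical axis) for each member probe set with a value at both ages. Symbols stand for genes, and a heavy outline marks the probe set used for the gene. All but 1 of the points, the dimmer Cfp probe set, lie above 0 on the vertical axis, while on the horizontal axis they lie on both sides.

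The genotype difference at 1 month addressed the same question during active necrosis and regeneration. Here 3 of the complement genes were higher in mdx/MMP-2 null (C5ar1, C1qc and Cfp) and 5 lower (Cfb, C3ar1, C1qb, Serping1 and C1qa), against 46.8% and 48.3% of all genes. Their median log2 difference was -0.14, against 0 for all genes. With median scaling C1qc and Cfp were lower as well, which left 1 gene higher and 7 lower with a median of -0.32. None reached 1.5-fold in either direction, a size that 7.08% of genes reached. C5ar1 and Cfb had log2 differences of 0.5 and -0.4, and with the mean of all probe sets C5ar1 had 0.08.

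Set side by side, 5 of the 8 genes (C1qa, C1qb, C3ar1, Cfb and Serping1) were below mdx in the double mutant at 1 month and above it at 3 months, a pattern that 22.9% of all genes showed. The difference at 3 months minus that at 1 month was above 0 for all 8, against 50.5% of genes, with a median of 0.48 on the log2 scale. It ranged between 0.26 for Serping1 and 1.25 for C3ar1, the only member at or past 2-fold, which 2.91% of genes were. The other C3ar1 probe sets gave 0.57 and 0.99 and the mean of its probe sets 0.94, all below 2-fold. With 1 array in each group this difference of differences was not tested.

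Age was compared within each genotype, to see how these genes stand once muscle has passed its first regeneration. In mdx/MMP-2 null all 8 had a higher value at 3 months than at 1 month, against 50.1% of genes, with a median log2 difference of 0.38. C5ar1 and C3ar1 were 1.69-fold and 1.6-fold higher, and these 2 were the members past 1.5-fold, against 7.41% of genes. With the mean of all probe sets 0 members passed 1.5-fold. With median scaling 5 did, while the median of all genes itself stood 0.19 log2 units higher. The share of all genes past 1.5-fold was not counted under these alternatives. Cfp was 1.44-fold, Cfb 1.43-fold, Serping1 1.18-fold and C1qa 1.11-fold higher. C1qb and C1qc hardly differed, at 1.0-fold and 1.01-fold, although the 2 remaining C1qb probe sets were 1.64-fold and 1.7-fold higher.

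In mdx, 6 of the 8 had a lower value at 3 months than at 1 month, against 47.7% of genes, with a median log2 difference of -0.17. C1qb was 1.6-fold lower, the member past 1.5-fold, against 7.27% of genes, but its remaining probe sets were 1.16-fold lower and 1.02-fold higher, and 0 members passed with median scaling or the mean of all probe sets. C3ar1 was 1.49-fold, C1qa 1.25-fold and C1qc 1.2-fold lower. C5ar1 was 1.31-fold higher at 3 months, Cfb 1.02-fold higher, and Serping1 and Cfp lower by 1.01-fold and 1.06-fold. In all, 6 genes were higher at 3 months in mdx/MMP-2 null and lower in mdx, as were 17.8% of all genes, and C5ar1 and Cfb were higher at 3 months in both. No member reached 2-fold with age, against 2.69% of genes in the double mutant and 2.52% in mdx. The ratio of the Actb control probe sets at the 3' and 5' ends, which reflects how intact the labelled RNA was, moved with age: it was 2.09 in the double mutant and 2.36 in mdx at 3 months, and 1.05 and 1.19 in the same order at 1 month. The like ratio for Gapdh differed less, with 0.935 in the double mutant and 0.936 in mdx at 3 months, and 0.85 and 0.883 in the same order at 1 month. The part of either in the age differences was not tested.

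**Figure D3:**
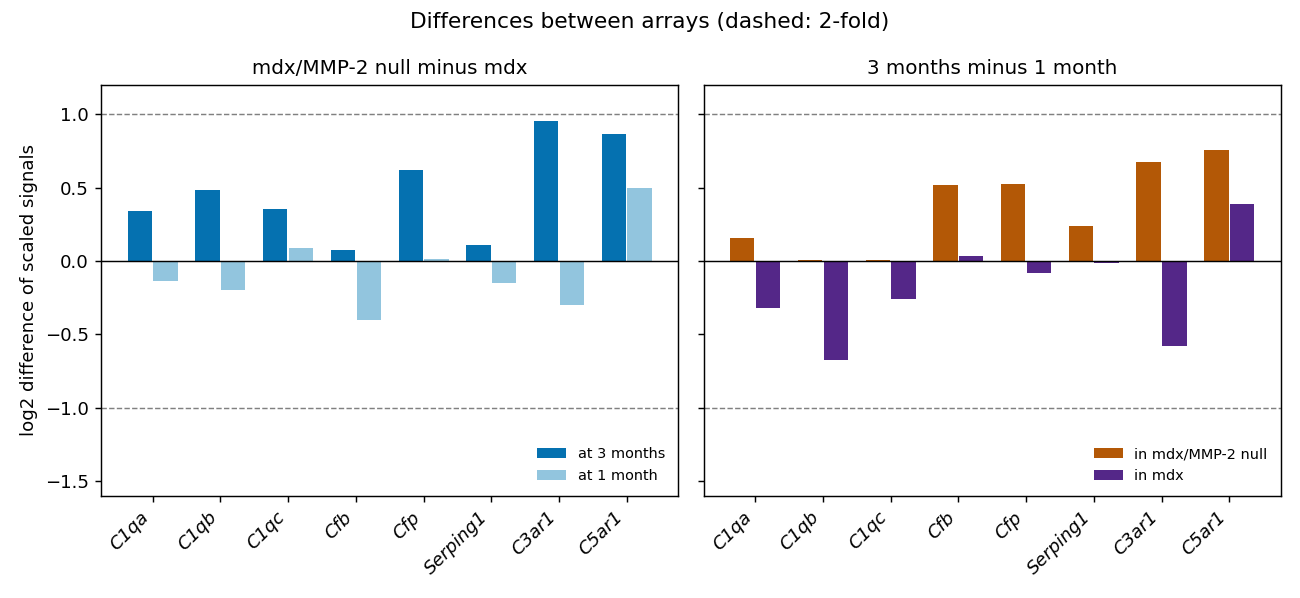
Log2 differences of scaled signals for the 8 genes, as mdx/MMP-2 null minus mdx at 3 months and at 1 month (left) and as 3 months minus 1 month in the double mutant and in mdx (right). Each bar sets 1 array against 1 other, and dashed lines mark 2-fold. All bars at 3 months on the left are above 0, led by C3ar1 at 0.95, and no bar reaches a dashed line.

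The additive model of genotype and age, fitted in limma over all 4 arrays, takes the difference between ages in the genotype effect as its error. At a Benjamini-Hochberg adjusted p below 0.05, limma called 0 of 8 members for genotype and 0 for age, as it did 0.0% of all 12801 genes in either case. At an unadjusted p below 0.05 it called 1 member for each, C5ar1 both times, against 4.37% of genes for genotype and 13.7% for age. Both of these calls were lost with the mean of all probe sets and without the filter on low signals, where limma called 0 members. For C5ar1 the limma estimate for mdx/MMP-2 null over mdx was 0.68 with a standard error of 0.17 on the log2 scale (unadjusted p = 0.0133, adjusted p = 0.982), with a higher signal in the double mutant at both ages. The limma estimate for 3 months over 1 month was 0.57 with a standard error of 0.17 (unadjusted p = 0.0248, adjusted p = 0.309).

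Most macrophage, monocyte and neutrophil markers were higher beside the complement genes at 3 months. All 19 measured macrophage and monocyte markers (of 22 listed) were higher in mdx/MMP-2 null at 3 months, with a median log2 difference of 0.53, and none was at the floor in any array. Their summed signal was 14984 in the double mutant and 10237 in mdx at 3 months, and 12364 and 13302 in the same order at 1 month. The sum was thus lowest in mdx at 3 months, as were most of the single markers. Cd14, Msr1 and Cd163 were instead lowest in mdx at 1 month, and Cd74 and Gpnmb in the double mutant at 1 month. At 1 month 10 of the 19 were higher, with a median of 0.01. Of 6 measured neutrophil markers (of 10 listed), 5 were higher in mdx/MMP-2 null at 3 months, with a median of 1.46 and summed signals of 699 in the double mutant and 126 in mdx, in which 3 of the 6 were at the floor. At 1 month the sums were 216 in the double mutant and 192 in mdx. The B cell markers measured (2 of 6 listed) had a median of -0.2 at 3 months, with 1 higher and 1 lower. In whole muscle, more cells of a type and more RNA per cell cannot be told apart, and the part of these markers in the complement differences was not tested.

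Other cell types differed less at 3 months. The 11 fibroblast markers measured had a median of 0.21, with 10 higher in mdx/MMP-2 null, and the 6 endothelial markers a median of -0.22, with 5 lower. The 8 skeletal muscle markers had a median of -0.02. Their signals were very high, for example 15192 for Tnnt3 and 13579 for Myh4 in both arrays at 3 months. Quantile normalization sets signals by rank, so small differences at this level cannot show whether muscle RNA differed. Liver is the main source of plasma complement. Of 9 liver serum protein genes with a probe set, 8 were at the floor in all 4 arrays, and the remaining F2 exceeded it only in mdx at 1 month (19.6).

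**Figure D4:**
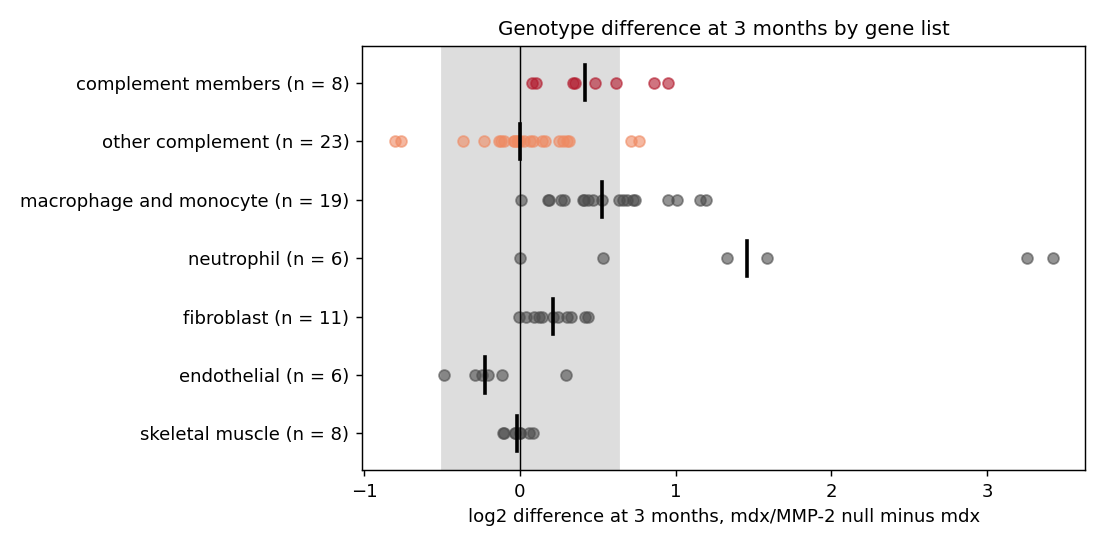
Log2 difference between mdx/MMP-2 null and mdx at 3 months (horizontal axis) for each gene of 7 lists. Points are genes, black ticks the medians of the lists, and the grey band holds the 5th to 95th percentile of all genes tested, between -0.5 and 0.64. The 8 complement genes lie between 0.08 and 0.95 with a median of 0.42, the 19 macrophage and monocyte markers have a median of 0.53, and the 23 other complement genes have a median of 0.

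The rest of the complement system was described from a list of 51 further genes, of which 43 had a probe set and 20 of those were at the floor in all 4 arrays. Among the 23 measured, 11 were higher and 11 lower in mdx/MMP-2 null at 3 months, with a median log2 difference of 0 and 2 genes past 1.5-fold in each direction. At 1 month 9 of the 23 were higher and 11 lower, with none past 1.5-fold, against 7.08% of all genes in either direction. By role, the 9 initiators of the classical and lectin pathways had a median of 0.06 at 3 months, the 6 regulators -0.04 and the 7 receptors 0.25. Of these receptors 5 were higher and 1 lower. Their median was the value of Itgam, whose signals of 23.8 in the double mutant and 20.0 in mdx at 3 months lay close to the floor. Of the 6 measured regulators 5 were lower at 3 months, as were 6153 of all 12801 genes. Cd55 and Cd59a had log2 differences of -0.76 and -0.37. Those of Cd46, Vtn and Cr1l were close to 0, at -0.04, -0.04 and -0.02. The remaining regulator, Clu, was higher, at 0.71.

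The members of this wider list past 1.5-fold lay on both sides. Itgb2, the beta chain of complement receptors 3 and 4, had 234 in the double mutant and 138 in mdx at 3 months (1.7-fold higher), and 158 and 225 in the same order at 1 month. Clu, clusterin, which restrains assembly of the terminal complex, had 1485 in the double mutant and 907 in mdx at 3 months (1.64-fold higher), and 877 and 1116 in the same order at 1 month. Both genes thus crossed over between the ages, a pattern that 22.9% of all genes showed. C3ar1 did so with the probe set used for it, while another of its probe sets was higher in the double mutant at both ages. Cd55, decay-accelerating factor, which speeds the breakdown of C3 convertases on cell surfaces, had 268 in the double mutant and 456 in mdx at 3 months, 1.7-fold lower, and 257 and 343 in the same order at 1 month, 1.33-fold lower. Fcna, ficolin A, a starter of the lectin pathway, had 29.4 in the double mutant and 51.3 in mdx at 3 months, 1.74-fold lower; its signal was below the level set for naming, and it was chosen after its values were seen. The proteases that C1q activates differed little: C1ra was 1.06-fold and C1s1 1.11-fold higher at 3 months.

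Among 7127 other genes with a mean signal of at least 85.4, the 5 whose centred log2 signals over the 4 arrays lay closest to the mean of the C1q chains were Pigt, Erp29, Pan3, Gtpbp2 and Actg1, at Euclidean distances of 0.02 to 0.05. C1qa, C1qc and C1qb themselves lay 0.11, 0.14 and 0.19 from that mean, and 67, 116 and 305 of the other genes were closer than they were. With the probe set used for each chain, the mean profile over these 4 arrays was thus not particular to the C1q chains. It spanned only -0.29 to 0.13 in centred log2 units. The remaining C1qb probe sets, which were lowest in another array, were not part of it.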

How the data were processed

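RNA of tibialis anterior was measured on 4 arrays, 1 for each group taken from the sample titles. The authors deposited intensity values per probe set on a linear scale. Per the submitters' processing notes these came from MAS5 and Affymetrix Expression Console, with settings not given in the sources used here. Of 45037 probe sets other than controls, 34945 carried 1 gene symbol, 932 several and 9160 none. Gene identifiers of 34741 matched the RefSeq gene table (GRCm38.p6).

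Arrays were quantile normalized (limma 3.58.1, R 4.3.3), floored at 17.4 and put on the log2 scale (Python 3.11.15, numpy 2.4.6, pandas 2.3.3, figures in matplotlib 3.10.9). Where a gene had several probe sets, the one brightest on average (mean of log2) stood for it. The 12801 genes that exceeded the floor somewhere were tested. Calls were made at 2-fold, with 1.5-fold beside it. The additive fit used lmFit and eBayes with Benjamini-Hochberg adjustment over all genes. Its code was also run on simulated arrays with age effects larger than any member showed and no genotype effect. That run does not cover effects of the sizes reported here.

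All members were named, with genes of the wider complement list past 1.5-fold in any of the 4 differences whose higher signal reached the 75th percentile (85.4), Mmp2 and Dmd as label checks, and the 5 genes nearest to the C1q profile. The same search for C3 could not be made. Dmd had 113 in the double mutant and 154 in mdx at 3 months, and 124 and 123 in the same order at 1 month; mdx muscle still makes Dmd transcripts, so it does not check the mdx label. Adipocyte markers were also listed: 5 were measured, with a median of 0.32 at 3 months. Members and lists were chosen with earlier results of these data known. Alternatives were median scaling, cyclic loess, no scaling, a lower and a higher floor (40th and 60th percentile), a pseudocount of 4.36 in place of the floor, no filter, the mean of all probe sets, leaving out _x_at and _s_at probe sets, a 3-fold threshold, and a variance prior following signal.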

Additional observations from a re-analysis of the deposited data

Results flagged for a closer look

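For 7 of the 8 genes the single arrays moved in opposite directions, either between genotypes at the 2 ages or with age in the 2 genotypes. The same held for 7113 of all 12801 genes (55.6%). Both contrasts give the same number, the log2 genotype difference at 3 months minus that at 1 month. It was 1.25 for C3ar1, 0.68 for C1qb, 0.477 for C1qa and 0.259 for Serping1, which had opposite directions in both contrasts. It was 0.482 for Cfb, opposite between genotypes, and 0.607 for Cfp and 0.267 for C1qc, opposite with age. These differences were not tested, and for C1qb and C1qc in mdx/MMP-2 null and for Serping1 in mdx the smaller of the age differences was at most 1.01-fold.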

How the results depend on the processing

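Under the 9 alternatives of scaling, floor, filter and probe set choice, all 8 genes were higher in mdx/MMP-2 null at 3 months, with a median between 0.35 and 0.85. Unscaled, that median was 0.85, against 0.41 for all genes, with 3 members at or past 2-fold, and the age median in mdx/MMP-2 null was 0.67, against 0.26 for all genes. Median scaling put 1 member past 2-fold at 3 months. At 1.5-fold the members called were 3 (genotype, 3 months), 2 (age, mdx/MMP-2 null) and 1 (age, mdx, lower), and none at 3-fold. Median scaling turned C1qc and Cfp at 1 month, and Cfb and Serping1 with age in mdx, as did no scaling for these last 2. Counts at 1.5-fold under the other alternatives were added after seeing the data. Unscaled they were 6 for genotype at 3 months and 1 for genotype at 1 month. For age, also unscaled, they were 5 in mdx/MMP-2 null and 2 (lower) in mdx, the last also with cyclic loess. The share of all genes at 1.5-fold was not counted under these alternatives. With the mean of probe sets, Cfp and C5ar1 fell short of 1.5-fold at 3 months, at log2 differences of 0.26 and 0.43. The limma fit called 0 members after adjustment in every setting run. Unadjusted it called 1 for genotype and 1 for age, except for 0 and 0 with the mean of all probe sets and with no filter. Unscaled it called 2 members for genotype, where 10.2% of all genes were called, against 4.37% in the main setting. The causes were not tested. No paired analysis was possible because each group holds 1 array.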
